A study of Homo sapiens with 4 samples.

Results

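The genes described here are 42 human genes of DNA repair, among them the Fanconi anemia genes, measured in GIST-T1 cells nucleofected with a mimic of miR-34a or with negative control RNA. GIST-T1 is an established cell line from a human gastrointestinal stromal tumor. The genes were chosen by symbol: a gene was a member when the array annotation carried exactly its name, and where a gene had several probes the one with the highest mean signal over all 4 arrays stood for it. All 42 were on the array, out of 36337 gene names there, of which 16192 had a probe among the 21474 that were tested. In each transfection, 3000000 cells were nucleofected with 100 pmol of a synthetic double-stranded miR-34a mimic (mirVana) or of the mirVana negative control, and total RNA was taken after 48 h. Each condition had 2 one-color arrays, labeled replicates 1 and 2, so both groups share the cell line, the nucleofection and the amount of small RNA, and differ in its sequence. The labels do not say whether replicates were separate cultures, so the p-values measure only the spread between these arrays, which may be technical. With a single cell line and a mimic given from outside, the comparison shows GIST-T1 cells after ectopic miR-34a at 1 time.

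DNA repair is divided by the kind of lesion. Homologous recombination copies an intact sister sequence to mend a double-strand break, end joining ligates the broken ends directly, mismatch repair removes replication errors, and single-strand break repair seals nicks. The Fanconi pathway recognizes DNA strands that are crosslinked to each other: a core complex of several subunits adds ubiquitin to FANCD2 and FANCI, which brings in nucleases and recombination factors. Many of these genes are transcribed mostly in S phase, when replication forks need them, and E2F transcription factors are known regulators of that program.

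The sequence introduced into the cells is shown first because its seed is the part that pairs with target transcripts. The RefSeq entry for the mature guide strand has 22 bases and lies on the minus strand of GRCh38.p14 chr1:9151735-9151756. The seed, bases 2 to 8, is in capitals.
hsa-miR-34a-5p: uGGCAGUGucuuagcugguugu
The 60-base probes are pieces of the transcripts, so they could be searched for the letters CACTGCC, the complement of the seed, and ACTGCCA, the complement of bases 2 to 7 followed by A. On the transcript strand, 2 of 69 probes of the 42 genes (2.9%) held one of them, against 354 of all 50599 probes (0.7%). These were the only probe of XRCC2 and the dimmest of 6 probes of PMS2. The XRCC2 stretch is printed with the match, bases 43 to 49 of the probe, in capitals.
XRCC2 probe: ttcgttgcagCACTGCCcatcagtgac
Such a match is a description of the letters, and transcript sequence outside the probes was not searched.

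RefSeq promoters of GRCh38.p14, from 250 bases before to 50 bases after the gene start, were found for 36 of the 42 genes. The first listed start of each symbol was used, and other starts were not searched. It need not be the start of the transcript that the probe measured. E2F-type letters were searched on either strand as the run TTCCCGC, also as the run TTCGCGC, also as the run TTGCCGC and also as the run TTGGCGC, where matches may overlap. At least 1 occurred in 21 of those 36 (58.3%), against 3564 of 27305 promoters (13.1%). The 27305 were not limited to genes detected on these arrays. In a list of S phase and replication genes, 16 of 21 promoters (76.2%) held the letters. The letters were in 4 of the 8 promoters of genes that were lower at an unadjusted p under 0.05, in 2 of the 4 of genes that were higher, and in 15 of the other 24 (62.5%). Promoters with and without these letters were thus found among lower and higher genes alike. For BRCA1, a lower gene counted as without the letters, the 180 bases before the start used were chr17:43170328-43170507, minus strand. Promoters at any other start of BRCA1 were not searched. CCAAT occurred in 17 of 36 (47.2%), against 35.7% of all promoters, and TTTGAA in 4 of 36 (11.1%), against 15.4%. The 180 bases before the start are printed for the 3 genes with an unadjusted p under 0.05 that hold E2F-type letters there, with these in capitals. They are RAD54L (chr1:46247508-46247687, plus strand), FANCA (chr16:89816648-89816827, minus strand) and XRCC1 (chr19:43575528-43575707, minus strand).
RAD54L: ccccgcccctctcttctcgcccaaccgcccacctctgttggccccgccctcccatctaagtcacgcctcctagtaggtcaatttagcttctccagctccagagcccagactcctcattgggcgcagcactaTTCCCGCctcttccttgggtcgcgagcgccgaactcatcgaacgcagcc
FANCA: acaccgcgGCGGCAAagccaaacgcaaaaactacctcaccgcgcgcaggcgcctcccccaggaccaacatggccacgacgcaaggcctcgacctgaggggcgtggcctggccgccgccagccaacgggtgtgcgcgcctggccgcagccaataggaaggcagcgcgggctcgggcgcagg
XRCC1: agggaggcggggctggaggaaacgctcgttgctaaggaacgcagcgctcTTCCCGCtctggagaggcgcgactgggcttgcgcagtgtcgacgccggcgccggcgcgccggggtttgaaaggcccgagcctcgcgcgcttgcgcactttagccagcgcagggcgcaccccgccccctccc
RAD54L and FANCA gave lower signals with the mimic and XRCC1 a higher one, as their values further on show.

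Probe signals are given on the log2 scale relative to the 75th percentile of the same array, and a difference is the mean of the 2 mimic arrays minus the mean of the 2 control arrays. Between 41.8% and 45.2% of probes were well above background on an array, and the number of arrays, 2 a condition, limits the precision. All 4 arrays lay on 1 slide and in 1 scan. All 7 GIST marker genes, KIT and ANO1 among them, were well above background on the 4 arrays, whereas of the markers of other cell types 2 of 5 epithelial, 3 of 5 leukocyte, 0 of 4 endothelial and 2 of 5 smooth muscle or Schwann genes were. CDH1, PECAM1, KDR, MYH11 and SOX10 were not well above background on any array.

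The chosen probes of all 42 genes were well above background on all 4 arrays. With the mimic, 30 of the 42 gave a lower mean signal and 12 a higher one. This put 71.4% below the control, against 51.5% of all tested probes. The differences were small: the median over the 42 genes was -0.11, against -0.01 over all tested probes, and the median size was 0.135, against 0.153. None of the 42 was lower or higher by more than 1.5-fold, where the background was 4.8% lower and 2.11% higher. The widest difference, that of LIG3, was 1.44-fold.

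In limma, 8 of the 42 genes (19%) were lower at an unadjusted p under 0.05, against a background of 11.6%, and 4 (9.52%) were higher, against 12.7%. With 1 array left out, both the counts and the background moved. Without negative control replicate 1 there were 4 lower and 0 higher genes, against 6.64% and 7.15% of all probes, and without negative control replicate 2 also 4 and 0, against 6.52% and 6.94%. Without miR-34a mimic replicate 1 there were 6 and 2, against 13.7% and 9.88%, and without miR-34a mimic replicate 2 there were 7 and 2, against 11.6% and 9.66%. No gene passed an adjusted p of 0.05 in limma: 0 of 42 here and 0% of all 21474 probes, although 5222 probes had an unadjusted p under 0.05. The smallest adjusted p among the 42 genes was 0.0954, and that of all probes was 0.0948. An exact two-sided permutation test of 2 against 2 arrays cannot go below 0.333 for any single gene. When limma's prior variance was allowed to follow the signal, 3 of the 42 were lower (7.14%, background 3.6%) and 2 were higher (4.76%, background 3.81%) at an adjusted p under 0.05. These were CHEK1, EXO1 and RAD54L on the lower side and TP53BP1 and XRCC1 on the higher side.

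Counted array by array, both mimic arrays lay below both control arrays for 23 of the 42 genes (54.8%), against 30.1% of all tested probes measured on all arrays. Both lay above for 8 genes (19%), against 30.4%, and for the other 11 the conditions overlapped. In this group of genes, non-overlapping lower signals were thus more frequent than over the array and non-overlapping higher ones less frequent, by count and with no test of the list.

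**Figure D1:**
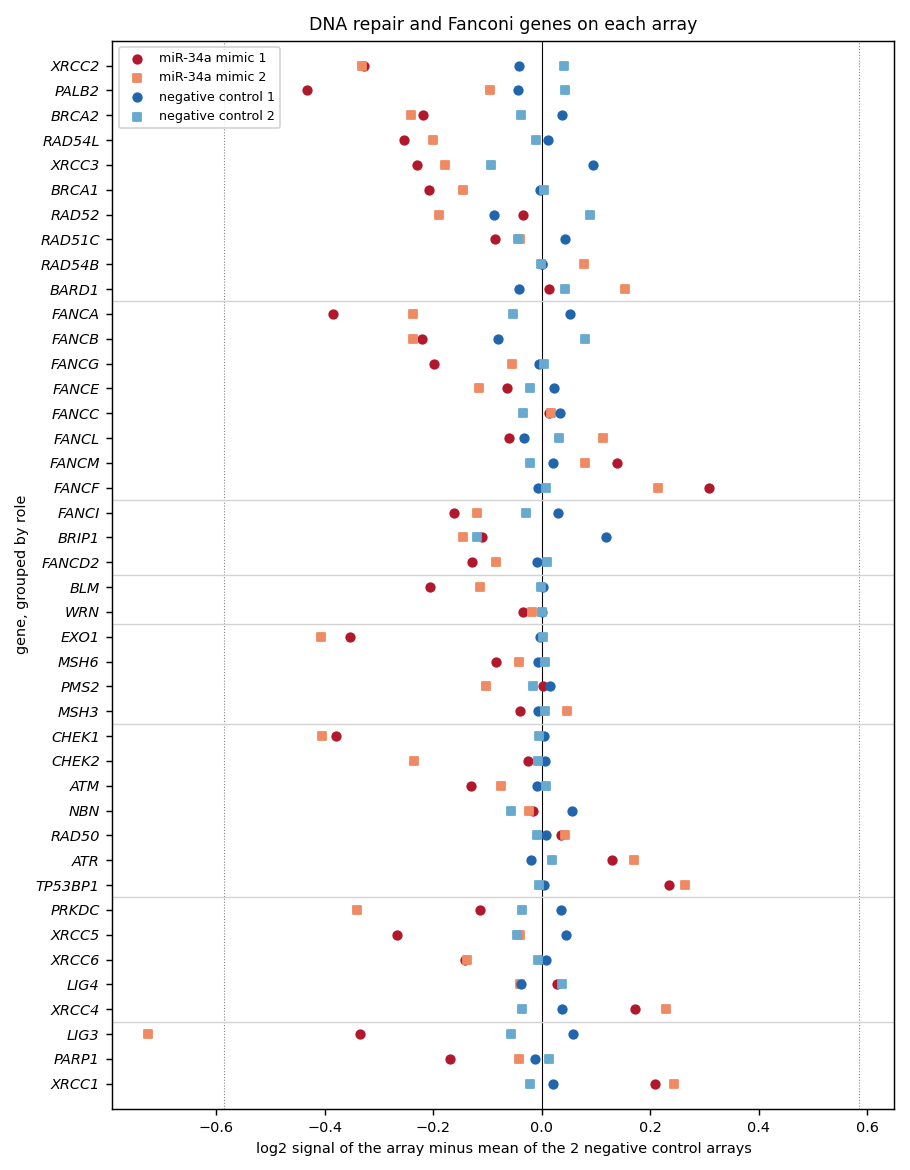
Log2 signal of each of the 42 genes on each of the 4 arrays, drawn relative to the mean of the negative control arrays and grouped by role, with dotted lines at 1.5-fold. Both mimic arrays lay below both control arrays for 23 genes and above them for 8.

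**Figure D2:**
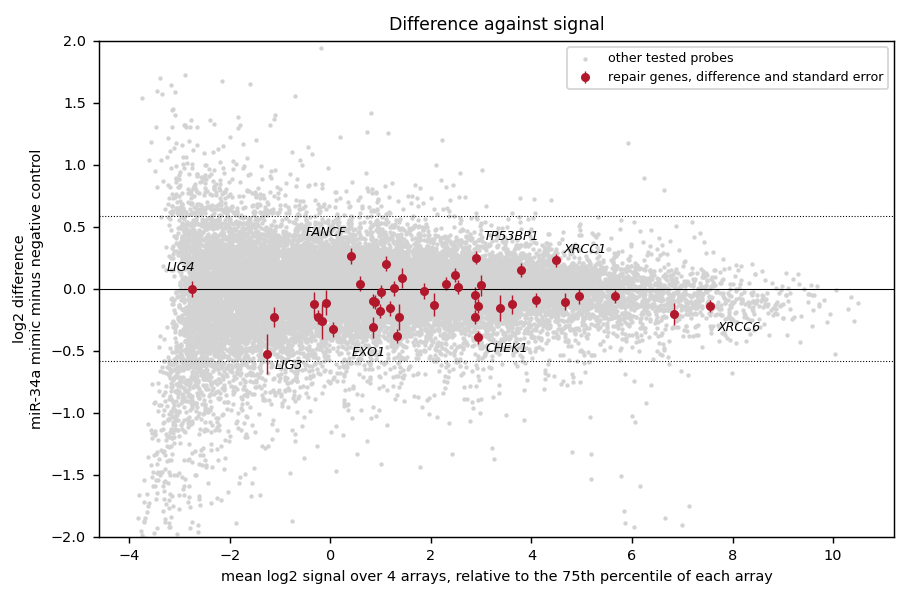
Log2 difference, miR-34a mimic minus negative control, against mean log2 signal for all tested probes (grey) and the 42 repair genes (color), with the vertical axis cut at 2 on either side, which leaves 55 tested probes outside. The repair genes lay within 1.5-fold of the control at every signal level, from LIG4 at -2.76 to XRCC6 at 7.56.

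Homologous recombination was the role with the most genes, and 8 of its 10 gave a lower signal (9 under normexp background correction), with a median difference of -0.19. XRCC2, a paralog in the complexes that help assemble the recombinase on single-stranded DNA, read -0.11 and -0.11 on the mimic arrays and 0.18 and 0.26 on the control arrays. Both mimic arrays were below both controls, a difference of -0.33 (SE 0.060, adjusted p = 0.112). Its probe, which carries the seed match shown above, lies at hg19 chr7:152343931-152343990. The PMS2 probe that also holds a match differed by -0.04 (SE 0.193).

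BRCA2 loads the recombinase onto DNA, and BRCA1 acts earlier, at the processing of the broken end. BRCA2 read -0.35 and -0.37 with the mimic and -0.09 and -0.17 with the control, a difference of -0.23 (SE 0.059, adjusted p = 0.151). BRCA1 read 0.87 and 0.93 against 1.07 and 1.08, a difference of -0.18 (SE 0.056, adjusted p = 0.19; probe at hg19 chr17:41196422-41196481). For both genes the mimic arrays lay below the control arrays without overlap. PALB2, which bridges the BRCA1 and BRCA2 proteins, differed by -0.26, but its 2 mimic arrays, at -0.47 and -0.13, lay further apart than that (SE 0.140, adjusted p = 0.33).

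RAD54L, a motor protein that remodels DNA during strand exchange, read 2.73 and 2.79 with the mimic and 3.0 and 2.98 with the control. The arrays did not overlap, and the difference was -0.23 (SE 0.056), with an adjusted p of 0.144 in limma and 0.0497 with the variance trend. Its relative RAD54B differed by 0.04. XRCC3, the brightest of the role and another paralog of the recombinase, read 6.72 and 6.77 against 7.04 and 6.85, a difference of -0.20 (adjusted p = 0.271) that was -0.11 without negative control replicate 1. RAD51C and RAD52 differed by -0.06 and -0.11, and BARD1, the partner of BRCA1, by 0.08 (SE 0.080), so that the BRCA1 and BARD1 probes had opposite signs.

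The 8 subunits of the Fanconi core complex and its ligase were divided evenly, 4 lower and 4 higher, with a median of -0.04. FANCA, a scaffold subunit, read 0.63 and 0.78 with the mimic against 1.07 and 0.96 with the control. The mimic arrays were lower without overlap, by -0.31 (SE 0.085, adjusted p = 0.161; probe at hg19 chr16:89864767-89864823). FANCF, an adaptor subunit, went the other way and read 0.59 and 0.50 against 0.28 and 0.29. Its difference was 0.26 (SE 0.062, adjusted p = 0.14), and again the arrays did not overlap.

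The remaining core subunits were closer to the control. FANCB, a subunit of the catalytic module, differed by -0.23 (adjusted p = 0.209), and FANCG by -0.13. FANCE, which contacts FANCD2 and was the brightest of the group, read 4.08 and 4.03 against 4.17 and 4.12, a difference of -0.09 (adjusted p = 0.399). FANCL, the ubiquitin ligase itself, differed by 0.03, FANCC by 0.02 and FANCM, the translocase that anchors the complex to DNA, by 0.11. By the chosen probes, the core complex therefore had no common direction at the level of its transcripts. The second probes of FANCC and FANCL were lower, by -0.23 (SE 0.068) and -0.06 (SE 0.084), whereas that of FANCF was higher by 0.39. The signs of FANCC and FANCL thus depended on the probe.

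Downstream of the core complex, FANCD2 and FANCI, the pair that receives ubiquitin, and BRIP1, a helicase that binds BRCA1, were all lower, by between -0.14 and -0.11. FANCI read 2.84 and 2.89 with the mimic and 3.03 and 2.98 with the control, without overlap (difference -0.14, SE 0.058, adjusted p = 0.256). FANCD2 did not overlap either, whereas the BRIP1 arrays did. The RecQ helicases, which unwind recombination and replication intermediates, were both lower as reported here, and 1 lower and 1 higher under normexp. BLM read 1.06 and 1.15 against 1.27 and 1.26 (difference -0.16, adjusted p = 0.236), and WRN differed by -0.03.

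Of the checkpoint kinases and damage sensors, 4 were lower and 3 higher, with a median of -0.02. CHEK1, the kinase that stalls the cell cycle when replication forks stop, had the smallest adjusted p of the 42 genes. It read 2.75 and 2.72 with the mimic and 3.13 and 3.12 with the control, and the 2 arrays of each condition lay close together and far from the other condition. The difference was -0.39 (SE 0.053), 1.31-fold lower, with an adjusted p of 0.0954 in limma and 0.0157 with the variance trend. The probe lies at hg19 chr11:125525158-125525217.

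ATR, the kinase that activates CHEK1, had a higher signal, with 3.84 and 3.88 against 3.69 and 3.73 (difference 0.15, SE 0.056, adjusted p = 0.224). The kinase and its substrate thus differed from the control in opposite directions. TP53BP1, which shields broken ends from resection and favors end joining, read 3.01 and 3.04 with the mimic and 2.78 and 2.77 with the control. This difference of 0.25 (SE 0.053) had an adjusted p of 0.128 in limma and 0.0372 with the variance trend. ATM and CHEK2, the kinases of the double-strand break response, differed by -0.10 and -0.13, and RAD50 and NBN, subunits of the complex that senses breaks, by 0.04 and -0.02.

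Among the mismatch repair genes, EXO1 stood apart. It encodes a nuclease that removes the strand carrying a mismatch and also resects broken ends. EXO1 read 1.15 and 1.10 with the mimic and 1.5 and 1.51 with the control, without overlap. Its difference was -0.38 (SE 0.055), 1.30-fold lower, with an adjusted p of 0.0965 in limma and 0.0279 with the variance trend (probe at hg19 chr1:242048717-242048776). MSH6, a mismatch recognition subunit, read 5.60 and 5.64 against 5.68 and 5.69 (difference -0.06, adjusted p = 0.509; -0.04 without miR-34a mimic replicate 1). MSH3, which recognizes larger loops, differed by 0.00, and PMS2, the endonuclease subunit, by -0.05.

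In end joining, 4 of 5 genes were lower and 1 higher, a split that became 3 and 2 under quantile normalization and under normexp background correction. XRCC6, a Ku subunit that caps broken ends, read 7.49 and 7.49 with the mimic against 7.64 and 7.62 (difference -0.14, adjusted p = 0.223). XRCC5, the other Ku subunit, differed by -0.15 (SE 0.104), and PRKDC, the kinase that Ku recruits, by -0.23 (SE 0.103). XRCC4, the partner of the ligase LIG4, was the exception with 1.18 and 1.24 against 1.04 and 0.97, a difference of 0.20 (SE 0.062, adjusted p = 0.184). LIG4 itself differed by -0.01.

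The 3 single-strand break repair genes diverged. XRCC1, a scaffold that gathers the repair enzymes, read 4.59 and 4.62 with the mimic and 4.40 and 4.36 with the control, a difference of 0.23 (SE 0.055) with an adjusted p of 0.143 in limma and 0.0390 with the variance trend. LIG3, the ligase that XRCC1 holds, read -1.33 and -1.72 against -0.94 and -1.05. Neither gene overlapped between conditions, and the scaffold and its ligase had opposite signs. The LIG3 difference of -0.53 (SE 0.161, adjusted p = 0.18) was the widest of the 42 genes and also the one with the widest SE, and it depended on a single array: it was -0.33 without miR-34a mimic replicate 2 and -0.73 without miR-34a mimic replicate 1. PARP1, which detects nicks, read 4.56 and 4.69 against 4.72 and 4.74 (difference -0.11, adjusted p = 0.416). This difference was -0.04 without miR-34a mimic replicate 1 and -0.17 without miR-34a mimic replicate 2.

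**Figure D3:**
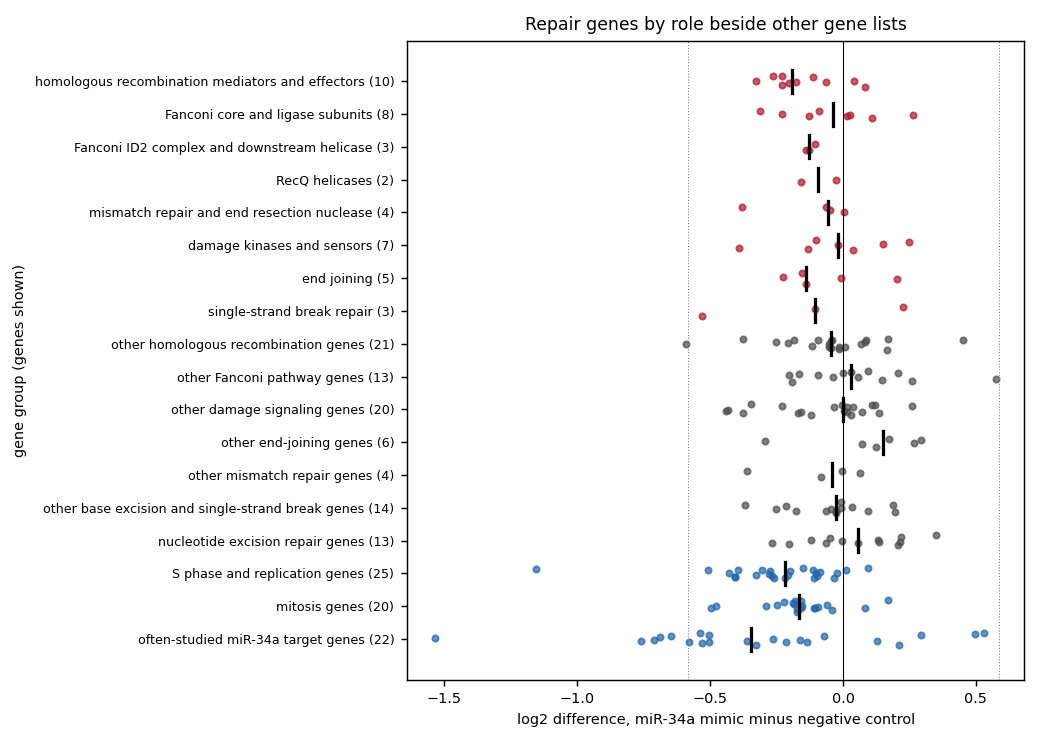
Log2 difference, miR-34a mimic minus negative control, of the 42 genes by role (red), of the other repair genes (grey) and of the cell cycle and miR-34a target lists (blue), 1 point a gene, with the median of each group as a bar and dotted lines at 1.5-fold. Homologous recombination genes had a median of -0.19, the Fanconi core subunits a median of -0.04 with 4 genes on either side of 0, and CHEK1, EXO1 and LIG3 lay lowest within their roles.

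Several probes were tested for 14 of the genes, and in 5 of these (FANCC, FANCL, RAD54B, CHEK2 and PMS2) the probes differed in sign. FANCA was lower with all 3 of its probes, by -0.31, -0.08 and -0.41, and FANCD2 with all 3, by -0.11, -0.24 and -0.22. FANCF was higher with both, by 0.26 and 0.39, as was ATR, by 0.15 and 0.16. Of the 24 tested probes other than the chosen ones, 1 was past 1.5-fold, the second probe of RAD52 at -0.60 (SE 0.352). It was well above background on 3 of the 4 arrays. CHEK2, PMS2 and FANCD2 have near-identical pseudogene copies elsewhere in the genome, so that their probes may also capture those transcripts.

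**Figure D4:**
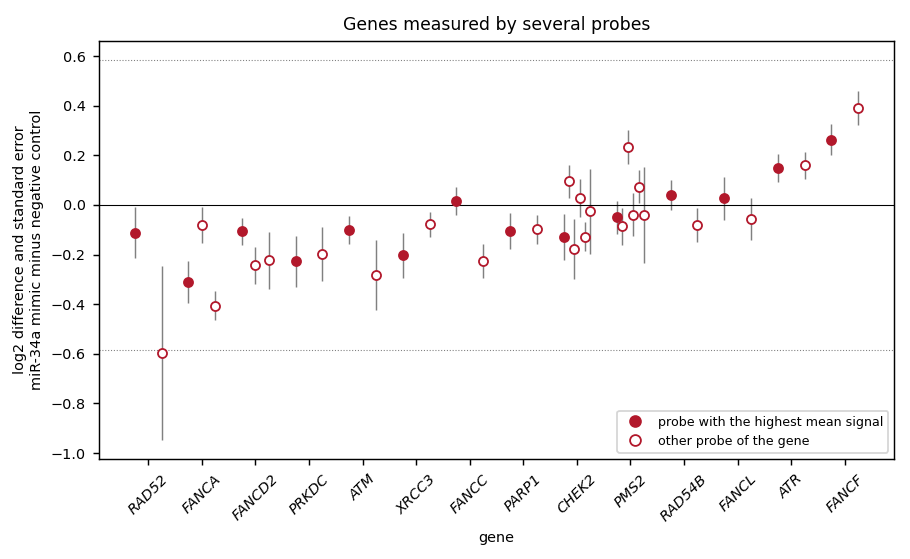
Log2 difference with its standard error for each tested probe of the 14 genes with several, the brightest probe filled and the others open; dotted lines mark 1.5-fold. The probes of FANCA, FANCD2, ATR and FANCF kept 1 sign within each gene, whereas those of CHEK2 and PMS2 lay on both sides of 0.

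The other repair genes give the setting for these values. Of 94 listed, 91 passed the filter on dim probes, and 50 were lower and 41 higher, with a median of -0.01; the split was 42 and 49 under normexp background correction. At an unadjusted p under 0.05, 12 were lower and 12 higher, against 11.6% and 12.7% of all tested probes. By more than 1.5-fold, 1 was lower, against 4.8% of all tested probes. That gene was RBBP8, which starts the resection of broken ends, at -0.59 (SE 0.201, adjusted p = 0.202). ERCC4, a nuclease subunit that cuts beside crosslinks, was higher by 0.58 (SE 0.058, adjusted p = 0.0948), and USP1, which removes ubiquitin from FANCD2, was lower by -0.20 (SE 0.054, adjusted p = 0.154). CLSPN, the adaptor through which ATR reaches CHEK1, differed by -0.34 (SE 0.079, adjusted p = 0.135). PCNA, the sliding clamp of replication and mismatch repair, differed by -0.36 (SE 0.064, adjusted p = 0.109).

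By subgroup, the other end-joining genes were mostly higher (5 of 6, median 0.15), with DNA polymerase POLL at 0.29. Of the 5 end-joining members 4 were lower, LIG4 by only -0.01, and 3 were lower under normexp or quantile normalization. The only end-joining member with an unadjusted p under 0.05 in limma, XRCC4, was higher, like most of the other list. The 13 other Fanconi pathway genes had 6 lower and 7 higher, the 21 other homologous recombination genes 14 and 7 (12 and 9 under both normexp and quantile normalization), and the 20 other damage signaling genes 10 and 10. Both the Fanconi and the damage signaling split changed by scaling, to 4 and 9 and to 9 and 11 under normexp. The 4 other mismatch repair genes had 3 lower and 1 higher, and 2 and 2 under quantile normalization. The 14 measured base excision genes had 10 and 4, and 7 and 7 under normexp, and the 13 nucleotide excision repair genes had 6 and 7, and 5 and 8 under quantile normalization.

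Genes of the cell cycle were lower on the same arrays. Of 25 S phase and replication genes, 23 were lower (22 under normexp), with a median of -0.22. At an unadjusted p under 0.05 in limma, 14 were lower, against 11.6% of all tested probes. At an adjusted p under 0.05 with the variance trend, 11 were lower, against 3.6%. CCNE2, a cyclin that starts S phase and a known miR-34a target, had the widest difference at -1.16 (SE 0.099, adjusted p = 0.0948). Of 20 mitosis genes, 18 were lower, with a median of -0.17. At an unadjusted p under 0.05 in limma, 8 were lower, against 11.6% of all tested probes. The kinesin KIF20A, at 0.17 (SE 0.054), was the 1 higher gene, against 12.7%. With the variance trend, 2 were lower at an adjusted p under 0.05, against 3.6%. MKI67, the proliferation marker, had the lowest difference of that list at -0.50 (SE 0.055). CHEK1, EXO1, RAD54L, XRCC2, FANCA and BRCA1 are themselves transcribed with replication in many cells. All of them were picked from the 8 repair genes lower at an unadjusted p under 0.05, the rest being BRCA2 and LIG3. Differences were smaller for FANCD2 (-0.11) and RAD51C (-0.06). CHEK1 and BRCA1 held no E2F-type letters in the promoters searched. Among repair genes that did hold them, MSH6 (-0.06) and BARD1 (0.08) differed little, and FANCF (0.26) and XRCC1 (0.23) were higher. The part of cell cycle position in the repair gene differences was not tested. In a bulk sample, fewer cells in S phase and less RNA per cell cannot be told apart. For scale, 17 of 22 measured genes often studied as miR-34a targets were lower. By more than 1.5-fold, 5 were lower, against 4.8% of all tested probes. The median of the 22 was -0.34, and PDGFRA, a receptor tyrosine kinase, differed by -1.53 (SE 0.075, adjusted p = 0.0948).

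**Figure D5:**
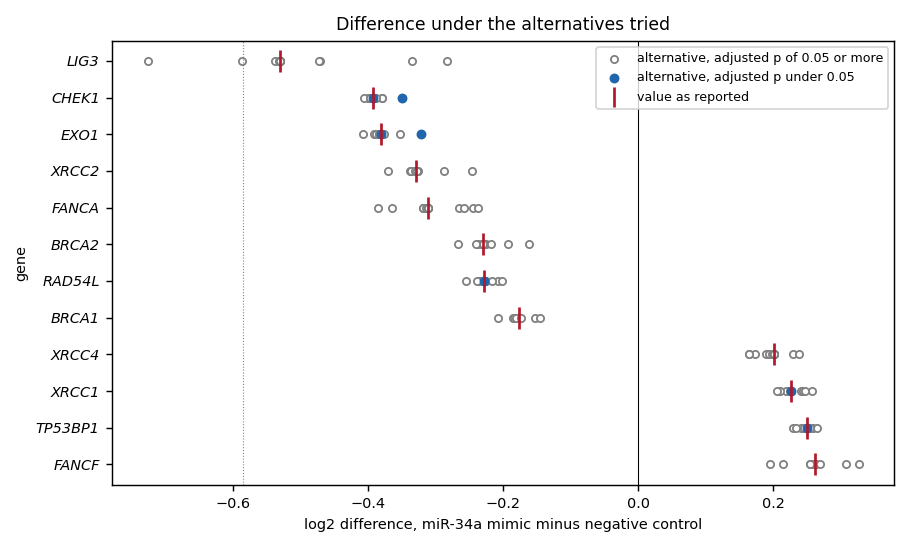
Log2 difference of the 12 repair genes with an unadjusted p under 0.05, as reported (bar) and under each of the 14 alternatives (circles, filled where the adjusted p was under 0.05), with a dotted line at 1.5-fold. CHEK1 and EXO1 stayed between -0.41 and -0.32, whereas LIG3 spread from -0.73 to -0.28.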

How the data were processed

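Total RNA of GIST-T1 cells was labeled with Cy3 and hybridized to one-color Agilent arrays by the authors, 2 for each condition. The deposited values are scanner intensity from Agilent Feature Extraction 10.7, per the file headers, already background-subtracted. The series table deposited by the authors holds the same values within 0.5% and served as an alternative. Control spots and outlier spots were left out, spots of a probe were averaged, and the log2 of the deposited intensity was taken and centered on the 75th percentile of each array. Testing was limited to probes that, in 1 condition or more, exceeded the scanner software's background call on both arrays. Conditions were compared with limma 3.58.1 (lmFit and eBayes, R 4.3.3), with Benjamini-Hochberg adjustment over 21474 probes; the code was tested on simulated data. Replicate numbers did not pair the arrays, with a correlation of their deviations of -0.0276, so no block was used. Named genes are those with an unadjusted p under 0.05 and the brightest of each role; others are given by their differences, and genes named from the other lists are examples. The genes and the lists were chosen with earlier results of these data known. The 14 alternatives covered background correction, normalization, filter, probe choice, test, block and each array left out.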

Additional observations from a re-analysis of the deposited data

How the results depend on the processing

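The median difference of the 42 genes lay between -0.12 (mean over all probes of a gene) and -0.07 (normexp) under the 14 alternatives, and between 29 and 32 genes were lower. No gene passed 1.5-fold except LIG3, so that 0 to 1 genes were lower by that much when an array was left out: 1 without miR-34a mimic replicate 1 or without negative control replicate 2. Counts at an unadjusted p under 0.05 moved both ways: 8 lower genes became 5 and 4 higher genes became 2 with the replicate numbers as a block, against 9.96% and 9.54% of all probes, and leaving out 1 array gave 4 to 7 lower and 0 to 2 higher, where 6.52% to 13.7% and 6.94% to 9.88% of all probes were. They were 11 and 5 with the variance trend (13.8% and 14.1% of all probes) and 8 and 6 with the methods' t-test (8.65% and 10.9%). With a 75th percentile over probes detected on every array they were 10 and 4 (12.4% and 12.1%). The mean over all probes of a gene gave 10 and 5, and no share of all probes was computed for it. At an adjusted p under 0.05, the count of 0 became 2 with normexp background correction (CHEK1 and EXO1), which called 877 of all probes, and 5 with the variance trend. Over the settings, 9 genes whose reported difference was near 0 had both signs: RAD54B, FANCC, FANCL, WRN, MSH3, MSH6, PMS2, NBN and LIG4. The last reached 0.22, and FANCC was -0.10 with the mean over all its probes. MSH6 changed sign under quantile normalization, to 0.0011, where the median of all probes moved to 0.02. The causes of these shifts were not tested. The replicate block changed no other call. With 2 arrays a condition, differences near the replicate spread could not be resolved, and no adjusted p under 0.05 in limma does not show that the genes did not differ.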
